A study of Mus musculus with 12 samples.

Results

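Skeletal muscle fibers hold a set of genes for moving calcium and for making ATP quickly that most other cells barely use. Levels of 33 such genes were followed in 12 Rd76-9 rhabdomyosarcoma tumors, out of 38898 genes that the sequencing covered. They are a list of names, put together for roles in excitation-contraction coupling, in the calcium store and in muscle-type energy metabolism, and no cutoff on level was used, although earlier results of these data were known when the list was made. All 33 were found in the files, and 32 passed the filter on low counts, which sarcolipin (Sln) did not.

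In a muscle fiber an action potential, carried by sodium channels and damped by chloride channels, reaches the triad, where a calcium channel of the surface membrane senses the voltage and opens the ryanodine receptor of the sarcoplasmic reticulum. Calcium stored on calsequestrin flows out, the fiber contracts, and a calcium pump and the buffer parvalbumin clear it again. Fast fibers pay for this with phosphocreatine, with glycogen broken down to lactate and, to a lesser extent, with mitochondria that carry muscle-type subunits of cytochrome c oxidase. Rhabdomyosarcoma is a tumor of cells that have entered the muscle lineage without finishing it.

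The tumors grew from Rd76-9 cells, a mouse embryonal rhabdomyosarcoma line from a carcinogen-induced tumor, injected into the flanks of wild-type C57/Bl6J mice of 8 to 12 weeks of age. There were 3 tumors in each of 4 groups, each from 1 mouse and taken on day 16. Vehicle tumors (m1, m2 and m3) came from mice given saline and empty folic acid nanoparticles, although one GEO label of these samples also names RCM1. VCR tumors (m4, m5 and m6) had vincristine, which blocks microtubules, at 0.25 mg/kg every 7 days. RCM1-NPFA tumors (m7, m8 and m9) had RCM1, an inhibitor of the transcription factor FOXM1, in folic acid nanoparticles at 8 µg every 48 hours. Combination tumors (m10, m11 and m12) had both drugs. RNA came from bulk pieces of tumor, so fewer cells of a type and less RNA per cell cannot be told apart.

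Each tumor had between 29342195 and 32108055 estimated counts. Levels are given as TPM, a share of all transcripts that corrects for transcript length, and always in tumor order within a group. Fold changes are log2 values from edgeR's quasi-likelihood test, from 1 fit of all 12 tumors and with p-values adjusted by Benjamini-Hochberg over 17602 genes. Their standard errors are approximate. Each is the size of the fold change divided by the square root of the F statistic of its test. A gene is said to have risen or fallen where its adjusted p was under 0.1. Of the 33 genes, 10 overlap another protein-coding gene in RefSeq, Mb, Cox6a2, Pfkm and Eno3 among them, and whether the counting used strand is not clear, so reads of such partners may not be told apart.

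The muscle lineage label was checked first. Myf5, an early myogenic factor, was between 38.8 and 59.9 TPM in the 12 tumors, while Myod1 and Myog, which drive later differentiation, were at most 0.0306 and 0.0767 TPM in vehicle tumors. Of the markers of adult sarcomeres, the vehicle tumors held mainly the troponin Tnni2, at 80.4 to 155 TPM, with Myh4, the myosin of the fastest fibers, at 6.39 TPM in m1 and at 0 in m2 and m3.

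Near the starts of these genes a script looked for the sequences that myogenic factors are known to bind, since the genes moved together. RefSeq windows of 250 bases before a start were on hand for 25 of the 33 genes. The E-box CAGCTG, read alike on both strands, was in a window of 14 of the 25 (56%), against 14.7% of all 27025 genes in the same table. The related E-box CAGGTG, searched on both strands, was in 7 of 25 (28%), against 19.4% of all genes. The looser pattern CANNTG, which contains both, was in 88% against 69.3%, and the motif TATAAA, searched on both strands, in 2 of 25 (8%) against 14.3%. A MEF2 motif was found in 4 of 25 (16%) against 3.42%, and a CArG box in 0 of 25 against 1.62%. These are matches of letters and not sites shown to be bound. The windows of a pump, a store protein and a pair of energy enzymes are shown from 5′ to 3′ along the gene, with both kinds of E-box in capitals, from the build GRCm38.p6. They lie at chr7:126463074-126463323 on the minus strand for Atp2a1, chr1:172219896-172220145 on the minus strand for Casq1, chr7:19410844-19411093 on the plus strand for Ckm and chr19:6384158-6384407 on the plus strand for Pygm.
Atp2a1: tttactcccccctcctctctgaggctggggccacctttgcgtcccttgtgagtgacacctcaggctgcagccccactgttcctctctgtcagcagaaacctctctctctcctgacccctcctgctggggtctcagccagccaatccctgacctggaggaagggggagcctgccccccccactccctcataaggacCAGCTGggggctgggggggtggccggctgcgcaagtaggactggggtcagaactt
Casq1: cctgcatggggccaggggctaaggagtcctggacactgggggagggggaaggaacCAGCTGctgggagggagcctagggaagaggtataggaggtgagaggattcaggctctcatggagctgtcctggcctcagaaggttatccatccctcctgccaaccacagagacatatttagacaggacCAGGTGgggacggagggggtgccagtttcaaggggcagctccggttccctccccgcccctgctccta
Ckm: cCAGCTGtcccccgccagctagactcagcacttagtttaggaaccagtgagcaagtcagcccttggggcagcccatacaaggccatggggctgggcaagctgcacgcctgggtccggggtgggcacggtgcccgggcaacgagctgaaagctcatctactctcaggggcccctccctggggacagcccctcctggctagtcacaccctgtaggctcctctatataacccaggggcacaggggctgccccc
Pygm: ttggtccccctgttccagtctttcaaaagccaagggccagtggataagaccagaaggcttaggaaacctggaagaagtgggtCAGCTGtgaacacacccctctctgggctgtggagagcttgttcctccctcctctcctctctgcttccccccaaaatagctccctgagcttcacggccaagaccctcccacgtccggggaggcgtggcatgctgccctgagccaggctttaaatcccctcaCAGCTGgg
The single CAGCTG of Atp2a1 lies 55 bases before the start, and that of Ckm 249 bases before it. Pygm has CAGCTG at 168 and at 8 bases before its start. Casq1 has CAGCTG at 195 bases and CAGGTG at 67 bases before its start.

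As a group, the 33 genes were low in vehicle tumors and higher in most treated tumors, but by very different amounts from tumor to tumor. Their TPM values summed to 412, 342 and 342 in the vehicle tumors and to 1910, 5289 and 1077 after VCR. After RCM1-NPFA the sums were 344, 449 and 8327, and after the combination 1240, 2326 and 535. Every VCR tumor and every combination tumor was above every vehicle tumor, while in the RCM1-NPFA group m7 and m8 were near the vehicle tumors and m9 held the highest sum of all. The heat map of levels shows the same split gene by gene.

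Against vehicle, 8 of the 32 tested genes rose after VCR and 0 fell. Over all 17602 genes, 2.90% rose and 2.82% fell in this comparison. The 8 were Casq2, Mb, Eef1a2, Ckmt2, Cox6a2, Cox8b, Fbp2 and Casq1, and their adjusted p-values lay between 0.0694 and 0.0999, all close to the threshold. The median log2 fold change of the 32 genes after VCR was 4.97, where the median of all genes was near 0, at 0.0016. At an unadjusted p under 0.05 stood 29 of the 32, against 22.1% of all genes.

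Other tests and other sets of tumors gave counts from 0 to 30 here. DESeq2's Wald test called 24 of the genes with all 12 tumors, against 15.0% of all genes, and 30 with only the groups compared, against 9.92%. With limma-voom 1 was called, against 3.87% of all genes. Leaving out vehicle tumor m2 or VCR tumor m4 or m5 left 0 of the genes called, and 0 of all genes as well, and without combination tumor m11 these counts were 0 and 1. Without m1, m3, m10 or m12 the count was 1 or 2, with 1.35% to 7.15% of all genes called. It was 17 to 19 without m6, m7 or m8, with 4.93% to 11.2% of all genes, and 30 without m9, with 7.82%. Without m5 and m9 together, a choice made after seeing the data, it was 24, with 1.42% of all genes.

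After RCM1-NPFA edgeR called 0 of the 32 genes, as it called 0% of all genes, and the smallest adjusted p was 0.419. The unadjusted p was under 0.05 for 27 of the 32, against 9.78% of all genes. DESeq2 called 21 with all 12 tumors, against 1.58% of all genes, and 0 with only the groups compared, against 0.221%, and limma-voom called 0. The median log2 fold change of 5.02 rested on m9, since it was 0.69 without that tumor.

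After the combination edgeR called 0 of the 32 genes, again with 0% of all genes, and the smallest adjusted p was 0.666. The median log2 fold change was 3.73, and 21 genes had an unadjusted p under 0.05, against 7.31% of all genes. DESeq2 called 3 with all tumors and 21 with only the groups compared, against 0.393% and 1.47% of all genes, and limma-voom called 0. EdgeR called 3 without m9 and 20 without m5 and m9 together, against 0.245% and 0.772% of all genes.

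**Figure D1:**
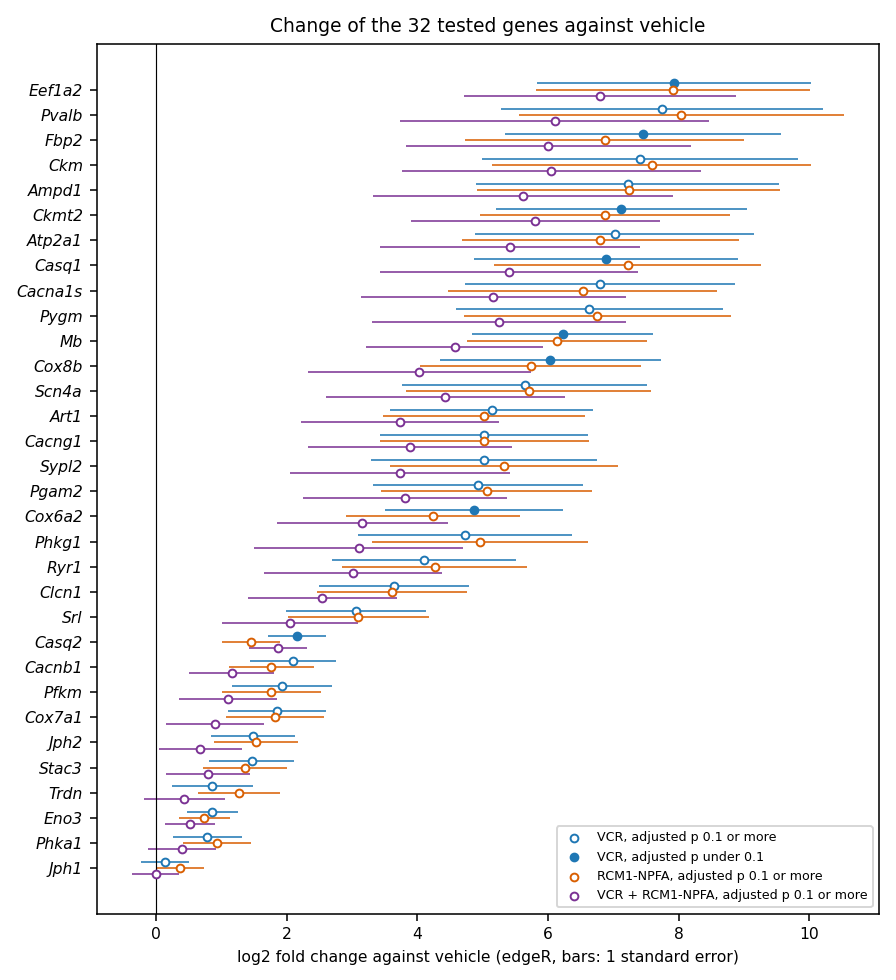
Log2 fold change against vehicle from edgeR, with 1 approximate standard error, of the 32 tested genes after VCR, RCM1-NPFA and the combination, each group having 3 tumors. Filled points mark the 8 genes with an adjusted p under 0.1, all after VCR, and the combination points lie to the left of the VCR points.

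Counted without a model, on CPM normalized by TMM, all 3 VCR tumors were above all 3 vehicle tumors for 31 of the 33 genes, Trdn and Jph1 being the others. This was so for 13.5% of all genes. The combination tumors were all above vehicle for 30 genes, against 7.10% of all genes, with Phka1 joining Trdn and Jph1. The RCM1-NPFA tumors were all above vehicle for 12 genes, against 5.56% of all genes. These 12 were Sln, Casq1, Casq2, Cacnb1, Clcn1, Ckmt2, Mb, Pgam2, Fbp2, Cox6a2, Cox8b and Eef1a2, and for them all 9 treated tumors were above all vehicle tumors, which held for 2.39% of all genes. In TPM, Cacnb1 in m8 and Cox8b in m7 were below m1. For 0 of the 33 genes was a treated group wholly below vehicle, against 10.9% of all genes after VCR, 5.86% after RCM1-NPFA and 5.53% after the combination.

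The order of tumors was much the same from gene to gene on this scale. Tumor m9 was the highest for 28 of the 33 genes and m5 for 4, and the highest pair was m9 and m5 for 32 genes. Within the VCR group the order m5, m4, m6 held for 30 genes, and within the combination the order m11, m10, m12 held for 28. Among vehicle tumors m1 was highest for 22 genes.

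The genes of the calcium store and its pump ran from Casq2, at most 1.48 TPM in any tumor, to Pvalb and Atp2a1, at 1269 and 1183 TPM in m9. Atp2a1 encodes SERCA1, the calcium pump of fast fibers. Atp2a1 was at 10.04, 0.411 and 0.579 TPM in vehicle tumors, 272, 907 and 120.5 in VCR tumors, 5.92, 11.4 and 1183 in RCM1-NPFA tumors and 178, 266 and 27.01 in tumors given both drugs. Each VCR and each combination tumor was above every vehicle tumor, m7 lay inside the vehicle range, m8 was a little above m1, and m9 was the highest of the 12. Its log2 fold change after VCR was 7.02 ± 2.14 with an adjusted p of 0.104, so it did not pass. The RCM1-NPFA change of 6.80 ± 2.12 became 1.32 without m9.

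Casq1 and Casq2 encode calsequestrins, the proteins that hold calcium inside the store, Casq1 being the form of fast fibers and Casq2 that of heart and slow fibers. The levels of Casq1 were 1.21, 0.164 and 0.0590 TPM with vehicle, 40.5, 105 and 12.5 after VCR, 1.60, 2.57 and 210 after RCM1-NPFA and 18.3, 39.6 and 4.26 after the combination. Casq1 was above every vehicle tumor in all 9 treated tumors and rose after VCR by 6.89 ± 2.02 (adjusted p = 0.0999). For Casq2 the 3 vehicle tumors gave 0.213, 0.185 and 0.332 TPM, the VCR tumors 0.683, 1.48 and 0.977, the RCM1-NPFA tumors 0.414, 0.489 and 1.11 and the combination tumors 1.06, 0.784 and 0.886. Casq2 stayed within 0.185 to 1.48 TPM, yet it too was above vehicle in all treated tumors, and it rose after VCR by 2.15 ± 0.44 (adjusted p = 0.0694), the smallest adjusted p among the 32 genes. The Casq2 counts behind this were 8 to 16 per vehicle tumor and 34 to 74 per VCR tumor. For each 100 TPM of Casq1 there were 17.6, 113 and 563 TPM of Casq2 in the vehicle tumors, the last 2 of these resting on 5 and 2 counts of Casq1. The treated tumors held 0.528 in m9 to 25.8 in m7, and m7, m8 and m12 were near m1.

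Pvalb encodes parvalbumin, the calcium buffer that lets fast fibers relax quickly. Pvalb was at 4.83, 0.0697 and 0 TPM in vehicle tumors, 219, 667 and 76.6 in VCR tumors, 2.38, 3.26 and 1269 in RCM1-NPFA tumors and 88.1, 241 and 13.1 in tumors given both drugs. It ranked second of the 33 genes in m9. The groups overlapped only after RCM1-NPFA, where m7 and m8 were below m1. Its change after VCR was 7.75 ± 2.47 (adjusted p = 0.113), and after RCM1-NPFA it was 8.04 ± 2.49, or 0.84 without m9.

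Sln encodes sarcolipin, a small peptide that slows the pump. The levels of Sln were 0.292, 0 and 0 TPM with vehicle, 1.95, 0.645 and 1.31 after VCR, 0.435, 0.535 and 1.10 after RCM1-NPFA and 0.418, 0.293 and 2.35 after the combination. Its highest value was in m12, unlike that of the other 32 genes, and it rested on 2 counts in the vehicle tumors against 29 after VCR, 15 after RCM1-NPFA and 22 after the combination. Relative to all counts the ratio to vehicle was 14.3 after VCR (95% exact interval 3.61 to 123), 7.34 after RCM1-NPFA (1.71 to 66.1) and 10.8 after the combination (2.65 to 94.4). These intervals cover counting error only. Srl, a calcium-binding protein of the same store, was between 1.15 and 2.20 TPM in vehicle tumors and reached 51.9 TPM in m9.

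The voltage sensor and the release channel were scarce without treatment. Cacna1s encodes the pore of the voltage sensor. Cacna1s was at 0.166, 0.0380 and 0.00849 TPM in vehicle tumors, 3.85, 16.1 and 2.13 in VCR tumors, 0.0892, 0.117 and 19.6 in RCM1-NPFA tumors and 2.89, 4.38 and 0.583 in tumors given both drugs. Its vehicle values stood on 1 to 19 counts a tumor. Both m7 and m8 lay inside the vehicle range, while the VCR and combination tumors lay above it. The change after VCR was 6.79 ± 2.07 (adjusted p = 0.104), and that after RCM1-NPFA was 0.58 without m9.

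Ryr1 encodes the ryanodine receptor that releases the calcium. For Ryr1 the 3 vehicle tumors gave 0.818, 0.551 and 0.666 TPM, the VCR tumors 7.12, 21.7 and 4.07, the RCM1-NPFA tumors 0.758, 0.720 and 37.6 and the combination tumors 5.93, 9.30 and 1.49. The vehicle tumors and m7 and m8 were all within 0.551 and 0.818 TPM, and the lowest of the other tumors was m12. Its change after VCR was 4.10 ± 1.41 (adjusted p = 0.133), and after RCM1-NPFA 4.27 ± 1.42, or 0.15 without m9. The remaining genes of the complex are Cacnb1 and Cacng1, further subunits of the sensor, and Stac3, an adaptor that couples sensor and receptor. Cacnb1 and Stac3 were already at 1.81 to 2.38 and 2.75 to 3.45 TPM in vehicle tumors and reached 15.0 and 19.5 in m9. Cacng1 went from 0.158 to 0.738 TPM in vehicle tumors to 43.6 in m9.

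In the scaffold of the triad, 3 of the 4 genes were above 5 TPM in every vehicle tumor, the fourth being Sypl2. Trdn encodes triadin, which ties calsequestrin to the release channel, and Jph1 and Jph2 encode junctophilins, which hold the membranes of the junction together. The levels of Trdn were 17.6, 9.34 and 14.3 TPM with vehicle, 13.1, 22.8 and 14.2 after VCR, 10.3, 13.2 and 47.6 after RCM1-NPFA and 11.3, 19.7 and 15.9 after the combination. Jph1 was at 7.16, 8.08 and 7.57 TPM in vehicle tumors, 6.91, 9.47 and 6.87 in VCR tumors, 4.89, 6.49 and 16.7 in RCM1-NPFA tumors and 8.02, 8.31 and 5.56 in tumors given both drugs. For both genes the treated and vehicle tumors overlapped, and m9 was the highest. The changes after VCR were 0.86 ± 0.62 for Trdn (adjusted p = 0.448) and 0.13 ± 0.36 for Jph1 (adjusted p = 0.866), and they went below 0 for Jph1 without m5.

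Vehicle tumors held Jph2 at 7.29, 5.69 and 6.97 TPM, VCR tumors at 14.3, 28.9 and 9.14, RCM1-NPFA tumors at 7.24, 7.37 and 42.5 and combination tumors at 10.2, 14.4 and 7.59. Jph2 was above vehicle in every VCR and combination tumor, with a change after VCR of 1.48 ± 0.65 (adjusted p = 0.208). Sypl2, the triad protein mitsugumin 29, was low in vehicle tumors, at 0.349 to 0.665 TPM, and at 35.8 TPM in m9. The median log2 fold change of the 4 scaffold genes after VCR was 1.17, where that of the 5 tested calcium store genes was 6.89.

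Of the genes of the surface membrane, Scn4a encodes the sodium channel of the muscle action potential. Scn4a was at 0.193, 0.0206 and 0.0314 TPM in vehicle tumors, 2.73, 7.32 and 1.28 in VCR tumors, 0.0805, 0.0988 and 12.6 in RCM1-NPFA tumors and 2.14, 2.88 and 0.359 in tumors given both drugs. Vehicle tumor m1 stood above m7 and m8. The change after VCR was 5.64 ± 1.87 (adjusted p = 0.123), and that after RCM1-NPFA fell from 5.70 to 0.14 without m9. Clcn1, the chloride channel that damps excitation, did not exceed 4.23 TPM in any tumor, but it was above vehicle in all 9 treated tumors. Art1, an ADP-ribosyltransferase of the muscle surface, was at 0.0963 to 0.375 TPM in vehicle tumors and at 40.4 in m9.

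Among the genes that serve quick ATP, Ckm encodes the muscle creatine kinase, which rebuilds ATP from phosphocreatine. Ckm was at 15.5, 0.0447 and 0.121 TPM in vehicle tumors, 538, 1641 and 217 in VCR tumors, 7.98, 13.8 and 2911 in RCM1-NPFA tumors and 302, 689 and 44.1 in tumors given both drugs. These levels stood on 374, 1 and 3 counts in the vehicle tumors and on 71874 in m9, where Ckm made up 35.0% of the summed level of the 33 genes. Vehicle tumor m1 lay above both m7 and m8, and all VCR and combination tumors lay above m1. The change after VCR was 7.41 ± 2.43 (adjusted p = 0.120), a large change with a large error that did not pass. Without m9, the change of 7.59 ± 2.44 after RCM1-NPFA was 1.13.

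Ckmt2 is the creatine kinase of muscle mitochondria. The levels of Ckmt2 were 0.197, 0 and 0.159 TPM with vehicle, 9.60, 29.7 and 8.99 after VCR, 0.640, 0.522 and 42.3 after RCM1-NPFA and 5.49, 14.3 and 1.48 after the combination. All 9 treated tumors were above vehicle, and Ckmt2 rose after VCR by 7.12 ± 1.92 (adjusted p = 0.0882). Ampd1, which deaminates AMP in working muscle, was at most 0.356 TPM in vehicle tumors and 69.1 in m9.

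Mb encodes myoglobin, the oxygen carrier that is richest in oxidative fibers. Vehicle tumors held Mb at 1.16, 0 and 0 TPM, VCR tumors at 16.6, 44.5 and 22.96, RCM1-NPFA tumors at 2.16, 8.11 and 75.05 and combination tumors at 12.1, 10.2 and 7.04. It was above vehicle in every treated tumor, m7 and m8 included, and rose after VCR by 6.22 ± 1.38 (adjusted p = 0.0726). Its change after RCM1-NPFA was 6.14 ± 1.38, or 3.76 without m9. The adjusted p of 0.419 was the smallest of that comparison, a value that Mb shared with many of the other genes.

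In glycogen breakdown and glycolysis, Pygm, Phkg1 and Fbp2 were under 3 TPM in all vehicle tumors, whereas Phka1, Pfkm, Pgam2 and Eno3 were above 3 TPM. Pygm encodes the glycogen phosphorylase of muscle. Pygm was at 2.74, 0.493 and 0.369 TPM in vehicle tumors, 71.6, 229 and 29.5 in VCR tumors, 1.80, 3.20 and 381 in RCM1-NPFA tumors and 41.9, 91.3 and 5.91 in tumors given both drugs. The VCR change was 6.63 ± 2.04 (adjusted p = 0.106), and all VCR and combination tumors were above vehicle. Its activating kinase has the subunits Phka1, at 5.47 to 6.84 TPM in vehicle tumors and 24.9 in m9, and Phkg1, at 0.228 to 0.434 and 33.3.

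Pfkm encodes the muscle phosphofructokinase, the committed step of glycolysis. The levels of Pfkm were 20.5, 19.1 and 21.8 TPM with vehicle, 46.98, 137 and 37.8 after VCR, 20.4, 23.96 and 165 after RCM1-NPFA and 39.01, 70.6 and 24.9 after the combination. Its change after VCR was 1.93 ± 0.76 (adjusted p = 0.174). Most of the difference between tumors lay in 1 RefSeq transcript of 2847 bases, which was at 0.746 TPM in m1 and near 0 in m2 and m3. This transcript was at 22.8, 106 and 16.2 TPM after VCR, at 1.57, 1.79 and 115 after RCM1-NPFA, and at 15.8, 44.7 and 4.604 after the combination. A 2894-base transcript of Pfkm was between 9.38 and 38.9 TPM in all 12 tumors. These values share reads, which kallisto divides between transcripts by an estimate, and they have no test.

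**Figure D2:**
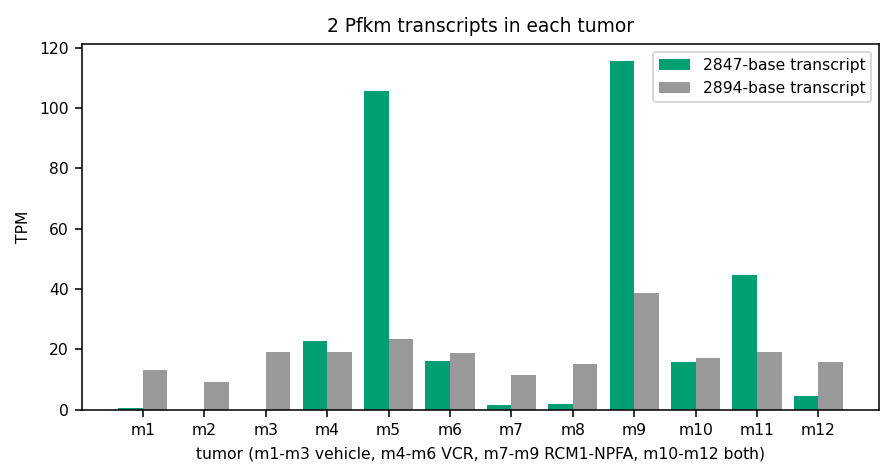
Level in TPM of a pair of Pfkm transcripts in each of the 12 tumors, told apart by their lengths of 2847 and 2894 bases. The 2894-base transcript is present in every tumor, whereas the 2847-base transcript is near 0 in the vehicle tumors and reaches 106 TPM in m5 and 115 TPM in m9.

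Phka1 also had a pair of transcripts. Its 5938-base transcript was near 0 in the vehicle tumors, in m7 and m8 and in m4 and m12, and at 7.85 TPM in m5, 1.21 in m6, 5.65 in m9, 1.44 in m10 and 4.13 in m11. Its 6115-base transcript was at 5.23 to 5.97 TPM in vehicle tumors and at 18.6 in m9, so in m9 most of the difference lay in this one, unlike Pfkm. Eno3, the enolase of muscle, was the highest of the 33 genes in vehicle tumors and made up 69.4% to 78.8% of their summed level. For Eno3 the 3 vehicle tumors gave 286, 269 and 261 TPM, the VCR tumors 401, 706 and 368, the RCM1-NPFA tumors 244, 313 and 866 and the combination tumors 364, 553 and 313. VCR tumors lay above vehicle throughout, m7 lay below it, and the change after VCR was 0.85 ± 0.39 (adjusted p = 0.225). Pgam2, the muscle phosphoglycerate mutase, was at 3.10 to 3.93 TPM in vehicle tumors and above them in all treated tumors, up to 347 in m9.

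Fbp2 is the fructose bisphosphatase of muscle, which runs a glycolytic step in reverse. Fbp2 was at 0.0897, 0 and 0 TPM in vehicle tumors, 2.55, 13.1 and 1.64 in VCR tumors, 0.137, 0.298 and 12 in RCM1-NPFA tumors and 1.91, 4.57 and 0.519 in tumors given both drugs. It rose after VCR by 7.45 ± 2.12 (adjusted p = 0.0953), a change set against only 2 counts in the vehicle tumors. Measured in counts, 411 after VCR gave a ratio of 202 (95% exact interval 55.6 to 1676, counting error only).

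Cytochrome c oxidase closes the respiratory chain, and muscle builds it with 3 subunits of its own. Cox6a2 was at 2.80, 2.40 and 2.22 TPM in vehicle tumors, 42.05, 132 and 22.8 in VCR tumors, 3.96, 3.67 and 130.1 in RCM1-NPFA tumors and 23.7, 34.95 and 8.52 in tumors given both drugs. Vehicle tumors held Cox8b at 1.80, 0.513 and 0 TPM, VCR tumors at 31.4, 87.1 and 16.2, RCM1-NPFA tumors at 1.75, 3.43 and 115 and combination tumors at 12.6, 22.3 and 3.85. Both were above vehicle in all 9 treated tumors on normalized CPM, and both rose after VCR, Cox6a2 by 4.87 ± 1.36 (adjusted p = 0.0935) and Cox8b by 6.04 ± 1.70 (adjusted p = 0.0946). The levels of Cox7a1 were 10.6, 8.10 and 9.04 TPM with vehicle, 20.4, 47 and 21.3 after VCR, 7.43, 9.62 and 75.5 after RCM1-NPFA and 17.5, 21.99 and 11.9 after the combination. Cox7a1 was thus present in vehicle tumors, and its change of 1.85 ± 0.75 after VCR did not pass (adjusted p = 0.183). Brown fat also uses Cox7a1 and Cox8b. Of 5 brown adipocyte markers Ucp1, Cidea and Dio2 were at most 0.0756, 0.159 and 0.141 TPM in the 12 tumors, and Elovl3 was at 0.530 to 3.10 TPM with its highest value in m2. Cpt1b, which carries fatty acids into mitochondria in muscle as well, was at 4.71 to 6.93 TPM in vehicle tumors, was higher in every VCR tumor and reached 15.0 in m9, with a change after VCR of 0.98 ± 0.31 (adjusted p = 0.114). The summed level of the 5 was 7.05 to 8.29 TPM in vehicle tumors, 9.34 to 13.98 after VCR, 7.44 to 16.9 after RCM1-NPFA and 7.91 to 10.2 after the combination, and its part in the changes was not tested.

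Eef1a2, the translation elongation factor that muscle and neurons use in place of Eef1a1, completes the list. For Eef1a2 the 3 vehicle tumors gave 0.0901, 0.0217 and 0.00667 TPM, the VCR tumors 6.39, 17.8 and 3.47, the RCM1-NPFA tumors 0.283, 0.366 and 28.8 and the combination tumors 3.35, 9.39 and 1.09. It had the largest VCR change of the 32 genes, 7.93 ± 2.10, and rose with an adjusted p of 0.0870. All treated tumors were above vehicle, and without m9 the RCM1-NPFA change of 7.92 ± 2.10 was 3.03.

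Many of these genes have a counterpart that other cells use, so their levels were set beside it in 22 pairs. Most counterparts differed little between tumors. Of the 20 that are not themselves among the 33 genes, 16 had a mean above 1 TPM, and in all 16 the highest tumor was less than 2 times the lowest. Of the 17 counterparts that could be tested, 1 rose after VCR, namely Cox6a1, by 0.41 ± 0.08 (adjusted p = 0.0694). The remaining pairs set members side by side. In the pair of Jph1 and Jph2 the Jph1 share was 49.6% to 58.7% in vehicle tumors and fell to 24.7% in m5 and 28.2% in m9, where Jph2 was high.

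For creatine kinase, Ckm made up 19.1, 0.0883 and 0.272% of the summed TPM of Ckm and Ckb in vehicle tumors. The share was 89.3, 96.8 and 80.1% after VCR, 13.9, 21.8 and 98.4% after RCM1-NPFA and 86.4, 92.3 and 37.99% after the combination. Ckb, the brain form, was at 44.5 to 71.9 TPM throughout. For the calcium pump, Atp2a1 made up 7.09, 0.282 and 0.465% of Atp2a1 and Atp2a2 with vehicle, 69.6, 89.95 and 46.9% after VCR, 4.16, 9.65 and 89.5% after RCM1-NPFA and 53.1, 66.6 and 18.4% after the combination. Atp2a2, the pump of most cells, was at 101.3 to 157 TPM. So transcripts of the muscle pump were ahead in m4, m5, m9, m10 and m11. Those of the general pump were ahead in the vehicle tumors and in m6, m7, m8 and m12.

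Pygm reached 94.1% of Pygm and Pygb in m9, from 1.44% at the lowest, and Pygb was at 23.9 to 29.9 TPM. Pfkm was 50.8, 42.8 and 49.6% of Pfkm and Pfkp in vehicle tumors already and 87.7% in m9. In other pairs the general form stayed ahead even in m9, where Eno3 was 32.8% of Eno3 and Eno1, Pgam2 33.2% of Pgam2 and Pgam1, Cox7a1 25.7% of Cox7a1 and Cox7a2, Cox6a2 18.5% of Cox6a2 and Cox6a1, and Cox8b 12.2% of Cox8b and Cox8a. Eef1a2 did not exceed 0.299% of Eef1a2 and Eef1a1. Ryr1 was over 97% of Ryr1 and Ryr3 in every tumor. The muscle form was over 50% in 2 to 5 of the 22 pairs in vehicle tumors, in 8 to 10 after VCR, in 4, 5 and 12 after RCM1-NPFA and in 6 to 9 after the combination. Some vehicle cases rested on very low levels, with Ckmt2 at 0.197 TPM in m1 and 0.159 in m3 and Fbp2 at 0.0897 in m1. The counts take Casq1 beside Casq2 and Jph1 beside Jph2 as the muscle form, although both genes of these pairs are on the list.

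**Figure D3:**
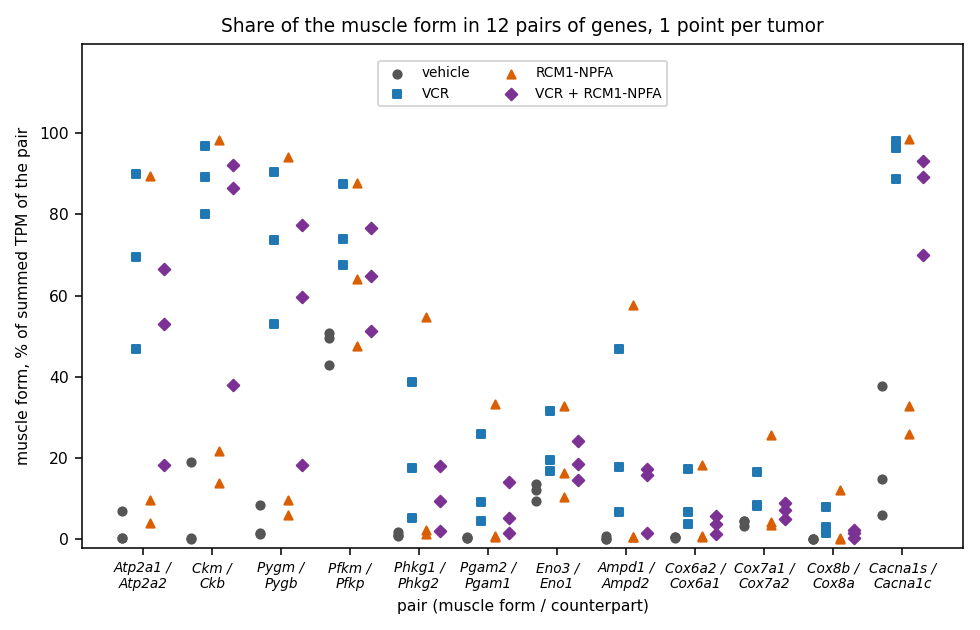
Share of the muscle form in the summed TPM of each of 12 pairs of genes, in percent, with 1 point per tumor and groups told apart by color and shape. VCR points lie above vehicle points in each pair, 1 RCM1-NPFA point, m9, lies among the highest, and the oxidase, Eno3 and Pgam2 pairs stay under 50% in all tumors.

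Some ratios between the genes were steady in the tumors with high levels and others were not. In the 3 VCR tumors, the 3 combination tumors and m9, Ckm ran from 44.1 TPM in m12 to 2911 in m9, a ratio of 66.1. For each 100 TPM of Ckm these 7 tumors held 13.1 to 13.9 TPM of Pygm, 38.6 to 61.3 of Atp2a1, 29.2 to 43.6 of Pvalb and 5.75 to 9.68 of Casq1. Cox8b varied more, from 3.23 TPM per 100 of Ckm to 8.73, and so did Cox6a2, from 4.47 to 19.3, and Mb, from 1.49 in m11 to 16.0 in m12. Casq2 per 100 TPM of Casq1 ran from 0.528 to 20.8, and Eno3 from 10.4% to 58.5% of the summed level of the 33 genes.

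In m7 and m8, where Ckm was at only 7.98 and 13.8 TPM, the mix differed from that of the tumors with high levels. For each 100 TPM of Ckm they held 27.1 and 58.9 TPM of Mb, 22.5 and 23.3 of Pygm, 20.1 and 18.7 of Casq1 and 49.6 and 26.7 of Cox6a2. The Mb values stood on 39 and 144 counts and those of Ckm on 189 and 349. Myosin heavy chains differed alongside, Myh1, the myosin of intermediate fast fibers, making up 94.3% and 74.5% of the summed TPM of Myh1 and Myh4 in m7 and m8, against 2.16% in m9. In m12 and m6, the other treated tumors with much Mb for their Ckm, at 16.0 and 10.6, the Myh1 share was 33.7% and 21.8%. It was 24.0% in m1 and 1.85% in m11. In m2 and m3 it was 100%, above m7 and m8, with Myh1 at 0.1084 and 0.1175 TPM and Myh4 at 0. These are ratios in single tumors, with no test.

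**Figure D4:**
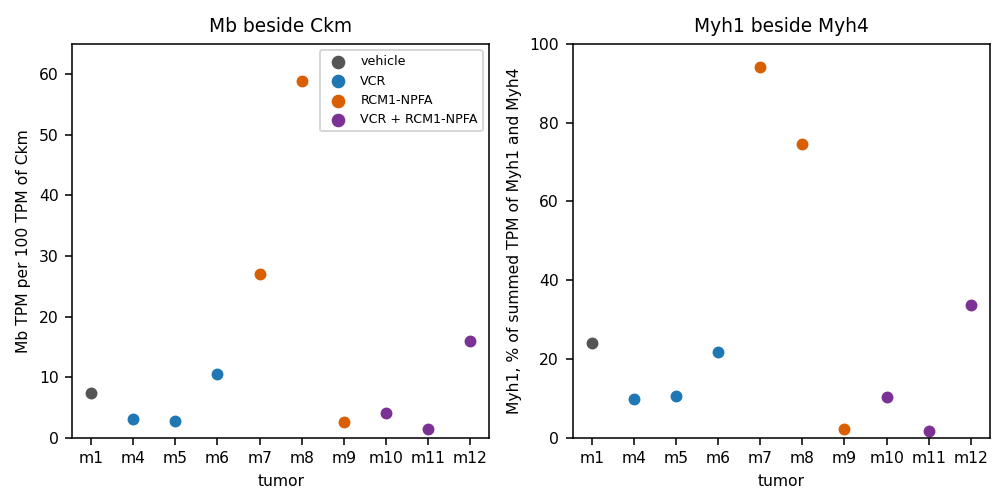
TPM of Mb per 100 TPM of Ckm (left) and share of Myh1 in the summed TPM of Myh1 and Myh4 in percent (right), 1 point per tumor, for 10 tumors. The other vehicle tumors, m2 and m3, are left out because they held 1 and 3 counts of Ckm. Their Myh1 share was 100%, from Myh1 at 0.1084 and 0.1175 TPM and Myh4 at 0. Of the tumors shown, m7 and m8 stand highest in both panels while m9 and m11 stand lowest on the right.

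The combination was also compared with each single drug. Against VCR all 32 genes had log2 fold changes below 0, with a median of -1.18, and edgeR called 0, with 0% of all genes called. At an unadjusted p under 0.05 stood 0 of the 32, against 5.26% of all genes. The smallest adjusted p was 0.855, DESeq2 called 1 with only the groups compared and 0 with all tumors, against 0.309% and 0.256% of all genes, and limma-voom called 0. The median was -0.22 without m5. Against RCM1-NPFA edgeR called 0 genes, again with 0% of all genes called. Here too 0 of the 32 had an unadjusted p under 0.05, against 2.07% of all genes. Both DESeq2 fits, with 0% and 0.0775% of all genes, and limma-voom called 0. The median of -1.13 turned to 2.47 without m9.

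The interaction of the drugs asks whether the combination differs from the sum of the changes by VCR and by RCM1-NPFA on the log2 scale. It was below 0 for all 32 genes, with a median of -6.30. EdgeR called 0 genes, with 0% of all genes called and a smallest adjusted p of 0.293, although 28 genes had an unadjusted p under 0.05, against 13.9% of all genes. DESeq2 called 20, all below 0, against 2.73% of all genes, and limma-voom called 0. The median was -2.03 without m9 and -0.92 without m5 and m9 together. The comparisons with vehicle share the vehicle tumors, so their changes are not independent of each other. For the mean of the 3 treated groups against vehicle, edgeR called 0 of the 32 genes and 0.0682% of all genes, with a median of 4.61. At an unadjusted p under 0.05 stood 27 of the 32, against 17.55% of all genes. DESeq2 with all tumors called 24, against 8.27% of all genes, and limma-voom called 0.

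Other genes of the same pathways had smaller median changes, but their lists were mixed. In TPM every VCR tumor was above every vehicle tumor for 24 of the 47 genes. On normalized CPM this held for 13.5% of all genes. Tumor m9 was the highest for 30 of the 47. Actn3 was listed with the energy genes although it encodes a sarcomere protein. Actn3, at 0.221 to 3.88 TPM in vehicle tumors, reached 431 in m9, and Tmem38a, at 3.48 to 4.15, reached 67.0. Of 21 further triad and calcium genes, 19 were tested, 2 rose and 1 fell after VCR, and their median log2 fold change was 0.59. Those that rose were Cav3, the caveolin of muscle membranes, by 7.69 ± 1.95 (adjusted p = 0.0850), and Orai1, a calcium entry channel, by 0.59 ± 0.15 (adjusted p = 0.0850). Asph, whose locus also encodes the triad protein junctin, fell by 0.35 on the log2 scale (standard error 0.09, adjusted p = 0.0851). Cav3 was at 0.0518, 0 and 0 TPM in vehicle tumors, 4.24, 6.76 and 2.84 in VCR tumors, 0.158, 0.392 and 14.2 in RCM1-NPFA tumors and 1.89, 2.69 and 0.948 in tumors given both drugs. The 3 most abundant, Fkbp1a, Bin1 and Asph, were at 282 to 340, 151 to 211 and 48.4 to 78.5 TPM in all tumors.

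Of 26 further energy genes, all tested, 1 rose after VCR and 0 fell, with a median of 0.20. It was Fabp3, which carries fatty acids in muscle, with a change of 5.54 ± 1.48 (adjusted p = 0.0871). The levels of Fabp3 were 0.696, 0 and 0.136 TPM with vehicle, 11.8, 15.5 and 9.97 after VCR, 0.640, 1.10 and 33.1 after RCM1-NPFA and 6.03, 7.01 and 2.79 after the combination. The glycolytic genes with the highest levels, Gapdh, Pkm and Aldoa, were at 3743 to 5746, 1593 to 2124 and 1010 to 3218 TPM. After RCM1-NPFA and the combination edgeR called 0 genes of both lists.

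Markers of the adult sarcomere moved with the 33 genes. Their summed TPM was 244, 134 and 100 in vehicle tumors, 3724, 10080 and 1729 after VCR, 261, 290 and 18170 after RCM1-NPFA, and 2157, 4639 and 544 after the combination. After VCR 11 of the 15 tested rose, of 16 listed, and 15 of the 16 had every VCR tumor above vehicle, Myh7 of slow fibers being at most 0.0338 TPM anywhere. Of 12 myogenic and embryonic muscle genes, 9 were tested and 3 rose after VCR, Myod1, Myog and Des. The embryonic myosins Myh3 and Myh8 were at most 0.665 and 0.422 TPM. Actc1, at 0.481 to 0.702 TPM in vehicle tumors, ran from 0.159 in m10 to 43.8 in m9. Myf6, at 0.466 to 0.668 TPM in vehicle tumors, ran from 0.243 in m7 to 20.3 in m9. Of 7 heart markers Myh6, Myl7 and Ryr2 were at most 0.058, 0.124 and 0.00917 TPM, while Tnnt2 was at 2.03 to 7.35, Tnni3 at 2.30 to 6.86 and Nppa at 0.0730 to 1.14. Nppb, at most 0.211 TPM in vehicle tumors and 1.23 in m5, rose after VCR by 2.26 ± 0.60 (adjusted p = 0.0870), the 1 called of 3 tested. The summed endothelial markers were 77, 55.2 and 56.8 TPM in vehicle tumors and 72.5 to 94.3 in treated tumors, highest in m5 at 94.3 and in m9 at 89.8. All 5 of them had changes above 0 after VCR, with a median of 0.43, and 0 passed. The summed smooth muscle and leukocyte markers ran from 127 to 180 and from 286 to 372 TPM over the 12 tumors, and white adipocyte markers from 0.450 to 136 TPM, with the highest sum in m2. The part of these markers in the changes of the 33 genes was not tested.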

How the data were processed

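RNA-seq was analysed for 12 Rd76-9 tumors, 3 per group. The authors prepared poly-A libraries, assigned reads to a GRCm38 transcriptome with kallisto (version not given in the sources used here), and used DESeq2. For each transcript they deposited an estimated count, which is neither normalized nor whole, and a TPM value. All 120299 transcripts were matched to RefSeq (GRCm38.p6), and the estimated counts and TPM were summed over 38898 genes. Summed counts were rounded.

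Genes were kept by filterByExpr with a minimum count of 10 (17602 genes), normalized by TMM and tested in edgeR 4.0.16 (R 4.3.3) with the quasi-likelihood F test, with all 12 tumors in one fit, Benjamini-Hochberg adjustment and a threshold of 0.1. TPM were used for levels and ratios only. Alternatives were DESeq2 size factors, no filter on counts, a mean of 50 counts, only the groups compared, limma-voom (limma 3.58.1), DESeq2 1.42.0, a threshold of 0.05, leaving out each tumor and, added after seeing the data, leaving out m5 and m9 together. The test was checked on simulated data.

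The genes and lists were chosen with earlier results of these data known. Described in full were 20 genes named for their roles and any other of the 33 with an adjusted p under 0.1, and of the pathway lists the 3 most abundant genes and any with an adjusted p under 0.1. From the list of other triad and calcium genes 1 gene is not reported here and is in none of that list's counts. No batch is given in the labels. The counts of no pair of tumors agreed within sampling noise. Each tumor is from a separate mouse. Promoter motifs were searched with Python 3.11.15 and figures drawn with matplotlib 3.10.9.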

Additional observations from a re-analysis of the deposited data

How the results depend on the processing

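The count of genes called after VCR, 8, was 0 at a threshold of 0.05, 25 with only the groups compared, 1 with limma-voom, 24 and 30 with DESeq2 on all tumors and on only the groups compared, and 24 without m5 and m9 together. It was 7 with DESeq2 size factors, 12 with no filter and 11 with a mean of 50 counts. Leaving out 1 tumor at a time gave 0 to 30. The count of 0 became 21 after RCM1-NPFA and 20 for the interaction with DESeq2 on all tumors. After the combination it became 3 and 21 with the DESeq2 fits and 20 without m5 and m9, and leaving out 1 tumor gave 0 to 3. For the combination against VCR it became 1 with DESeq2 on only the groups compared. For the mean of the treated groups it became 2 with no filter, 24 with DESeq2 and 7 without m5 and m9, and leaving out 1 tumor gave 0 to 5. The shares of all genes called there were 0.247%, 8.27% and 0.325%, and 0% to 2.65% with 1 tumor left out. The cause of these differences was not tested.

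Some changes crossed 0. Without 1 tumor at a time the log2 fold change of Trdn after RCM1-NPFA ran from -0.11 to 1.68, that of Cox7a1 from -0.024 to 2.28 and that of Jph1 from -0.33 to 0.66, the lowest values being without m9. Jph1 ran from -0.099, without m5, to 0.24 after VCR and from -0.14 to 0.14 after the combination. Without m5 and m9 together the changes were -0.11, -0.026 and -0.33 for Trdn, Cox7a1 and Jph1 after RCM1-NPFA and -0.11 for Jph1 after VCR. Over 21 described genes, 1116 of 1309 recomputed changes kept their direction and their side of the threshold, 73 no longer passed it, 109 newly passed it and 11 changed sign.

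No paired analysis was possible because the labels give each tumor its own number, so no number is shared between groups. With 3 tumors in a group, and vehicle levels of Sln, Fbp2 and Mb resting on 0 to 20 counts, the size of these genes' fold changes is uncertain. The approximate standard errors differed between genes, and each is computed from the size of its own fold change. What set their width was not tested. The standard error after VCR was 2.14 for Atp2a1, with 24 to 646 counts per vehicle tumor, and 2.43 for Ckm, with 1 to 374. It was 0.44 for Casq2, which had 8 to 16. The log2 fold changes of Atp2a1, Ckm and Casq2 after VCR were 7.02, 7.41 and 2.15.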
